A study of Mus musculus with 136 samples.

Results

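The genes described here make up the folding and secretion machinery of the endoplasmic reticulum, 39 genes chosen by name for their function. The choice was made with earlier results of these data known. The array held 48 probes for 35 of the 39 genes, out of 25697 probes in all, and no probe was annotated to Dnajb11, Sdf2l1, Atf6 or Sec61g. By role, the 39 genes were 9 chaperones and co-chaperones, 4 protein disulfide isomerases, 2 lectin chaperones, 7 subunits of the translocon and of its associated TRAP complex, 4 subunits of signal peptidase, 7 genes of ER-associated degradation, 4 transcription factors of the stress response and 2 of its output genes. Secreted and membrane proteins enter the endoplasmic reticulum through the Sec61 channel, lose their signal peptide to signal peptidase, and are folded by chaperones, disulfide isomerases and lectins, while proteins that fail to fold are returned to the cytosol and degraded. When unfolded proteins accumulate, the unfolded protein response raises these genes through the transcription factors ATF6, XBP1 and ATF4, the last of which also acts upstream of Ddit3, Trib3 and Chac1. Plasma cells, hepatocytes and gland acinar cells are textbook examples of cells with a large folding and secretion apparatus.

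The data were Illumina MouseRef-8 bead array profiles of total RNA from the liver, lungs, spleen, thyroid and the cortex and medulla of the kidney of 22 female BALB/c nude mice aged 9 months. The study asked whether the transcriptional response to 131I depends on the time of day at which it is given. For this, 12 mice received 90 kBq 131I intravenously and 10 mice received physiological saline, at 9:00, 12:00 or 15:00, and tissues were excised after 24 h. The 131I groups held 4 mice at each time, and the saline groups held 4 mice at 9:00, 3 at 12:00 and 3 at 15:00, with 1 thyroid (131I, 12:00) and 1 medulla (saline, 9:00) fewer. All groups, the saline groups included, carried the Foxn1nu background of the strain, in which the thymus does not develop and mature T cells are few. All 6 tissues came from the same mice, so that tissues are not independent of each other. There were 130 tissue samples (71 with 131I, 59 with saline) on 136 arrays, because 6 samples were hybridised a second time and their arrays were averaged.

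Levels are given below as log2 intensities. The scale for comparisons within a tissue was normalized within that tissue, and the scale for comparisons between tissues was normalized over all arrays, and the text states where the second is used. A probe or gene was said to rise or fall where its fold-change was 1.5 or more and limma's p, adjusted by Benjamini-Hochberg over all tested probes of the tissue, was below 0.01, the cut-offs that the study used. Where a gene had several probes, the brightest over all arrays stands for it. Levels of different genes are not compared, because probes differ in brightness for reasons other than abundance.

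On each array, between 34.7% and 51.9% of probes (median 44.0%) were above background. Canx and Ssr1 were above background on 0 of the 136 arrays, Trib3 and Derl1 on 2 each, Manf on 16, Derl3 on 28 and Edem1 on 34, so that little can be said of the first 4. Some samples stood apart from their labels. A 12:00 131I spleen had a mean of 11.14 over 11 proximal tubule markers, against 5.38 to 5.71 in the other spleens, and a 9:00 saline lung had 10.75, against 5.84 to 6.07. A 9:00 131I thyroid (replicate 2) had a mean of 7.73 over 9 lung epithelium markers, against at most 5.28 in the other thyroids. Leaving out the spleen or the lung sample left 0 of the genes called in each comparison of treatment or time in its tissue, as with it. Among the 10 thyroid follicular markers on the array, each thyroid sample had 0 to 2 above background, and Tg, Slc5a5, Pax8 and Foxe1 were above background on 0 of 23 thyroid arrays, while salivary gland, skeletal muscle and fat markers were high in some or all of these samples. The samples labelled thyroid are therefore called by that label only.

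Sequence elements through which the unfolded protein response acts are shown here because they mark which of the genes carry a known stress element at the promoter. RefSeq windows of 300 bases (250 before and 50 from the start site on, GRCm38.p6) were held for 31 of the 39 genes, and none for Hyou1, Manf, Atf6, Sec61a1, Ssr2, Sec11c, Spcs3 and Derl1. Both strands were searched for 4 motifs: ERSE (CCAAT and CCACG with 9 bases of any kind between them, bound by ATF6 with NF-Y), ERSE-II (ATTGG and CCACG with 1 base between them), UPRE (TGACGTGG) and CARE (TGATGNAA, bound by ATF4 dimers). The ERSE was in 39 of 32851 windows (0.119%) and in 9 of the 31 genes (29.0%), and in 1 of 94 other genes of the pathway. ERSE-II was in 12 windows (0.0365%), among them those of Dnajb11 and Herpud1, and in 0 of the 94 others. The UPRE was in 222 windows (0.676%) and in 0 of the 31 genes, but in 8 of the 94 others (8.51%). The CARE was in 1304 windows (3.97%), in those of Chac1, Herpud1 and Trib3 (9.68% of the 31) and in 9 of the 94 others (9.57%). In the genes shown, no 2 of these matches overlapped. A match is a description of the sequence and not evidence that a factor binds there. The ERSE matches follow, each 5′ to 3′ on its own strand, with the fixed letters in capitals, the coordinates and the number of bases from the end of the match that is farther from the start site to that site.
Hspa5, chr2:34772025-34772043, plus strand, 65 bases before the start: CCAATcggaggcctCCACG
Hsp90b1, chr10:86705638-86705656, minus strand, 212 bases before the start: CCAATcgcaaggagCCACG
Hsp90b1, chr10:86705533-86705551, plus strand, 107 bases before the start: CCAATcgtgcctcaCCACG
Creld2, chr15:88819520-88819538, minus strand, 126 bases before the start: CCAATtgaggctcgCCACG
Dnajc3, chr14:118937827-118937845, plus strand, 105 bases before the start: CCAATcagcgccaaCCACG
Pdia6, chr12:17266491-17266509, plus strand, 98 bases before the start: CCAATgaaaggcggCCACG
Calr, chr8:84847075-84847093, plus strand, 162 bases before the start: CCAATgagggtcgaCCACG
Canx, chr11:50325800-50325818, minus strand, 145 bases before the start: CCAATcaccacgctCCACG
Derl3, chr10:75893242-75893260, minus strand, 156 bases before the start: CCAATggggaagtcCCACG
Syvn1, chr19:6046532-6046550, plus strand, 44 bases before the start: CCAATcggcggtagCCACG

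Whole windows of the 250 bases before the start site are shown for the genes on which the comparisons below turn. Hspa5 and Creld2 carry an ERSE, Herpud1 carries an ERSE-II and a CARE, Chac1 carries a CARE, and P4hb carries none of the 4 motifs. Each window reads 5′ to 3′ in the direction of the gene, and capitals mark the fixed letters of the motifs.
Hspa5, chr2:34771840-34772089, plus strand: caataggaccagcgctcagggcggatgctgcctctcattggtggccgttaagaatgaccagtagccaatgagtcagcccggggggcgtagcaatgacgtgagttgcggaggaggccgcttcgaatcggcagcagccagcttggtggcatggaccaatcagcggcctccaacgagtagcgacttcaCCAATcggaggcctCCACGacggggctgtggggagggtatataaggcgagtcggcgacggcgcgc
Creld2, chr15:88819396-88819645, plus strand: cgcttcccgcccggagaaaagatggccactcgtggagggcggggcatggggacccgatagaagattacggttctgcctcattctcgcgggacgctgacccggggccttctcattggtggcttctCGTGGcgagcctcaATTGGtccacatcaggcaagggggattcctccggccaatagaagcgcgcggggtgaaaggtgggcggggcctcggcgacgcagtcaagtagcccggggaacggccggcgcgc
Herpud1, chr8:94386179-94386428, plus strand: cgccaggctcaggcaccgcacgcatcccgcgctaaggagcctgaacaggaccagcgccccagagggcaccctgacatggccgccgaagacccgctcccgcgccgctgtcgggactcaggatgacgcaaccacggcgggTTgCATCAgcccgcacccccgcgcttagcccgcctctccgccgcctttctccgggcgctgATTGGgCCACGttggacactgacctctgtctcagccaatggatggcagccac
Chac1, chr2:119350992-119351241, plus strand: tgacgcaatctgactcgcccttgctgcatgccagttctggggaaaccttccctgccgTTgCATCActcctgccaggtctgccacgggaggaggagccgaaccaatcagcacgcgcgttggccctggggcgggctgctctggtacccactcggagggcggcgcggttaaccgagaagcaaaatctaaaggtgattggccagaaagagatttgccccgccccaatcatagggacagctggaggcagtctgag
P4hb, chr11:120573254-120573503, minus strand: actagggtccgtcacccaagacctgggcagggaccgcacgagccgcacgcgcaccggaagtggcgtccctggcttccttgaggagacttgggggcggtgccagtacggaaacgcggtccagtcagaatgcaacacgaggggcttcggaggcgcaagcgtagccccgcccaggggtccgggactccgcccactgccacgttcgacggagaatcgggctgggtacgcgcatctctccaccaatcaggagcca

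Across the tissues of saline mice, liver and spleen had the most genes at a level above that of the other tissues. Both had higher chaperones (Dnajc3, Hspa5 and Hyou1 in liver, Creld2, Hsp90b1 and Hspa5 in spleen) and higher degradation genes (Derl2, Edem1 and Sel1l in liver, Derl3, Sel1l and Syvn1 in spleen). Of the 4 disulfide isomerases 3 were higher in liver and 1 in spleen, and of the 4 signal peptidase subunits 1 was higher in liver and 3 in spleen. On the scale of all arrays, 31 of the 35 genes could be tested, among 16236 probes, with 10 samples per tissue and 9 in kidney medulla. The thyroid mean pools samples that differed widely in salivary gland markers, as given below. In liver, 14 genes were higher and 2 lower than the mean of the other 5 tissues, against 16.7% of all probes higher and 25% lower (41.7% called). In spleen, 12 were higher and 4 lower (26% and 25.4% of all probes, 51.4% called), and in thyroid 3 were higher and 9 lower (19.4% and 21.8%, 41.2% called). Cortex had 5 lower (15.2% of all probes lower), medulla 1 (13.6%) and lungs 2 (20.7%), and 0 were higher in any of these, where 14%, 13.7% and 19.7% of all probes were higher (29.2%, 27.3% and 40.5% called). The median difference over the 31 genes was 0.34 on the log2 scale in liver and 0.36 in spleen, against −0.14 and −0.03 over all probes, and it was −0.32 in cortex, −0.25 in medulla, −0.19 in lungs and −0.04 in thyroid. Counting the genes near background too, the highest mean of the 35 genes was in liver for 14, in spleen for 12, in thyroid for 5, in lungs for 3 and in cortex for 1. Of these genes, Trib3 (highest in liver), Derl1 and Ssr1 (thyroid) and Canx (cortex) were above background in 0 saline samples. Their place in the tally carries no order, and the same tally over all genes was not made.

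**Figure D1:**
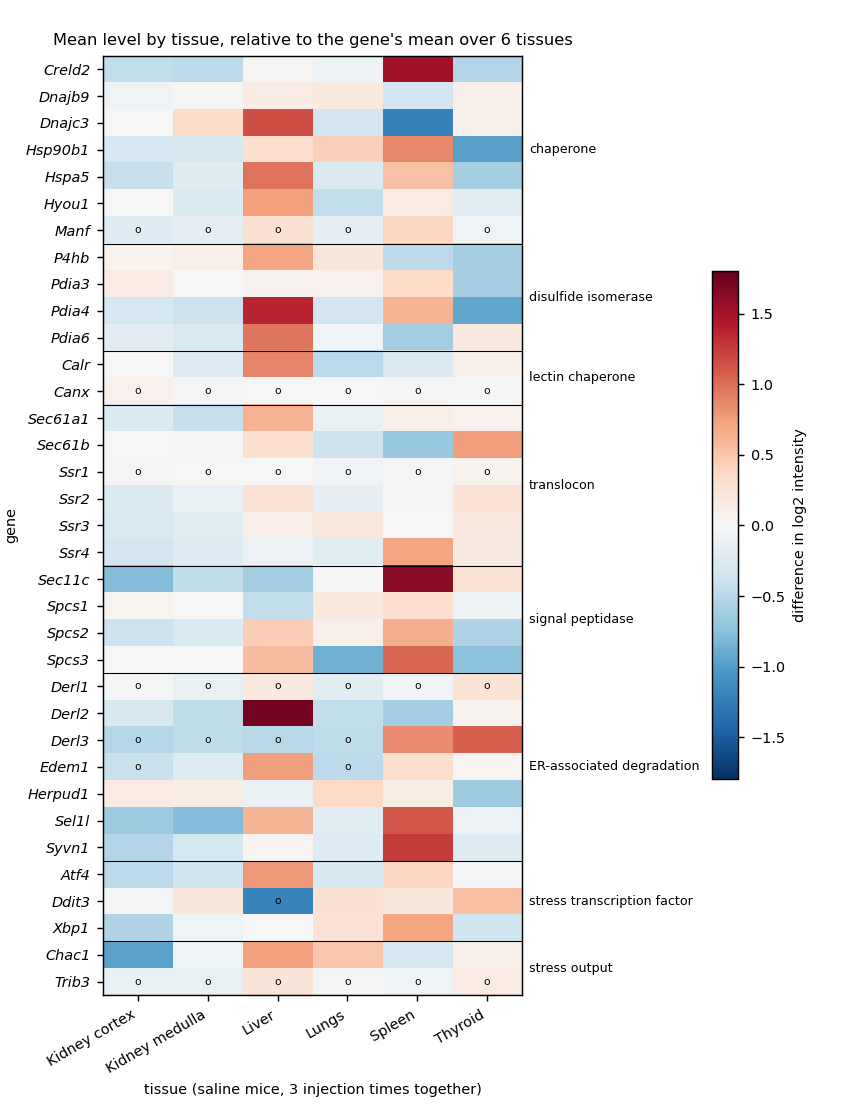
Mean level of each gene in the 6 tissues of saline mice, as a difference (log2, colour scale) from the mean of the 6 tissues, with genes in rows grouped by role and a small circle where no sample of the tissue was above background. Derl2, Pdia4 and Dnajc3 are highest in liver, and Sec11c, Creld2 and Syvn1 in spleen.

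Among the chaperones, Dnajc3, a co-chaperone that also restrains the translation-control kinases, ranged from 8.76 to 9.52 (median 9.05) in the 10 saline livers and from 6.13 to 7.67 (median 6.47) in the 10 spleens. The ranges of liver and spleen did not overlap, and limma gave 1.38 (SE 0.11) higher in liver and 1.43 lower in spleen than in the other tissues. Creld2, a stress-inducible protein of the endoplasmic reticulum, was ordered otherwise, with 9.74 to 11.26 (median 9.96) in spleen and 7.19 to 9.55 (median 7.73) in thyroid. Its spleen levels were above those of every other tissue sample, by 1.82 (SE 0.12) on average, and its second probe gave 1.84. Hspa5, the central Hsp70 chaperone of the compartment, was 1.14 higher in liver and 0.64 higher in spleen, and 0.72 lower in thyroid. Hsp90b1, the Hsp90 paralog there, was 1.05 higher in spleen and 1.22 lower in thyroid. Hyou1, which exchanges nucleotides on Hspa5, was 0.88 higher in liver, whereas Manf was near background in every tissue.

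In all, 3 of the 4 disulfide isomerases were highest in liver. Pdia4 ranged from 8.98 to 9.97 (median 9.36) in liver and from 6.43 to 7.90 (median 7.15) in thyroid, while spleen (8.10 to 9.75) overlapped with liver. Pdia6 ranged from 9.21 to 9.90 (median 9.46) in liver and from 7.57 to 8.58 (median 7.91) in spleen. In both genes the lowest liver sample was above the highest of the other tissue named, and against all other tissues Pdia4 was 1.63 (SE 0.10) and Pdia6 1.15 (SE 0.07) higher in liver. P4hb, the founding disulfide isomerase and a subunit of collagen prolyl 4-hydroxylase, was 0.89 higher in liver and 0.90 lower in thyroid. Its thyroid levels ran from 10.33 to 13.55 (median 11.22), past the highest liver (13.30). The lower mean therefore does not hold for every thyroid sample, and those of 9:00 were the high ones. Pdia3, which works with the lectin chaperones, was 0.79 lower in thyroid and was called in no other tissue. The lectin chaperone Calr ranged from 8.35 to 9.67 (median 8.93) in liver and from 6.58 to 9.19 (median 7.53) in lungs, and these ranges overlapped although liver was 1.04 higher and lungs 0.60 lower than the other tissues. Canx was not above background in any sample and has no order.

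The 4 signal peptidase subunits had their highest mean in spleen, and the translocon genes in different tissues. Sec11c, a catalytic subunit of signal peptidase, ranged from 11.36 to 12.57 (median 12.12) in spleen and from 9.07 to 10.07 (median 9.66) in kidney cortex. Spleen was 1.97 (SE 0.13) higher than the other tissues, and only 1 range, that of thyroid (9.57 to 12.41), overlapped with it. Spcs3, another subunit of the same enzyme, ranged from 9.82 to 10.56 (median 9.98) in spleen and from 7.81 to 8.40 (median 8.10) in lungs. These did not overlap, with spleen 1.26 higher and lungs 1.01 lower than the other tissues, and liver was 0.68 higher. Sec61b, the small β subunit of the channel, had the opposite order, at 9.32 to 10.81 (median 9.55) in thyroid and 7.93 to 9.05 (median 8.31) in spleen. Thyroid was 0.85 higher and spleen 0.81 lower, and the second probe of Sec61b gave 0.94 and −1.01. Ssr4, a subunit of the TRAP complex, ranged from 12.31 to 13.29 (median 12.59) in spleen and from 11.40 to 11.68 (median 11.56) in cortex, a difference without overlap, and spleen was 0.87 higher than the other tissues.

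In ER-associated degradation, Derl2, one of the derlins that form the exit channel, ranged from 9.13 to 10.10 (median 9.80) in liver and from 6.90 to 7.76 (median 7.41) in spleen. All 10 livers were above every other tissue sample, and liver was 2.04 (SE 0.11) higher than the other tissues, the widest such difference among the 31 genes. Its other probes gave 1.12 and 2.07 in liver, and one of them was called lower in thyroid (−0.69) where the brightest probe was not (0.13). Sel1l, the adaptor that holds the ubiquitin ligase Syvn1, ranged from 10.10 to 11.69 (median 10.64) in spleen and from 8.49 to 8.91 (median 8.78) in medulla, without overlap. Spleen was 1.35 higher for Sel1l and 1.54 (SE 0.07) higher for Syvn1, and Sel1l was the only gene called in medulla, 0.92 lower. The other 2 probes of Sel1l gave 0.67 and 0.11 in spleen, so that the size rests on the probe. Derl3, a stress-inducible derlin, was above background in 9 of 10 spleens and 5 of 10 thyroids, and in 0 samples of the other 4 tissues, at least 1.34-fold higher in spleen and at least 1.58-fold higher in thyroid than in those 4.

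The stress factors were divided between tissues too. Xbp1, the transcription factor needed for plasma cell secretion, ranged from 12.30 to 13.38 (median 12.63) in spleen and from 11.05 to 12.31 (median 11.37) in cortex. The 2 ranges met at their edges, with spleen 0.88 higher than the other tissues, and splicing of Xbp1 was not analysed here. Ddit3, the factor known as CHOP, ran from 4.60 to 5.75 (median 5.29) in liver by its brightest probe, which was above background in 0 of 10 livers, and from 6.01 to 7.66 (median 7.04) in thyroid, above background in all 10. The ranges did not overlap. By this probe liver was at least 1.9-fold lower than the mean of the other tissues. The measured difference, 1.43 on the log2 scale, came from liver signal below background. By the second probe liver was 0.90 lower, and thyroid was 0.67 higher by both. Atf4 was 0.92 higher in liver. Chac1, a glutathione-degrading enzyme downstream of ATF4, varied widely within these tissues, from 5.44 to 9.48 (median 7.63) in liver and from 4.57 to 8.26 (median 5.88) in cortex. These ranges overlapped, and the means were 0.84 higher in liver (adjusted p = 0.00343) and 1.13 lower in cortex. Trib3, a pseudokinase induced with it, was above background in 0 saline samples of any tissue.

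Among other genes of the pathway, the ER-to-Golgi transport list had 11 of 20 tested genes higher in liver and 1 lower (median difference 0.70), and other folding enzymes had 6 of 14 higher and 2 lower. N-glycosylation genes had 3 of 15 higher in liver and 0 lower. Of 16 ATF4 targets, 4 were higher and 10 lower in liver, and 7 were higher and 3 lower in spleen. The counts of all probes called in these tissues, given above, are the background for these.

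One spleen stood apart among the saline spleens. In replicate 2 of the 9:00 saline group, 22 of the 31 tested genes had the highest level of all 10 saline spleens, against 12.6% of all probes, and in each of the other 9 spleens 0 to 3 genes did. This sample was hybridised 2 times, and its first array alone gave 21 genes and its repeat array 23, against 15.9% and 13.6% of all probes. Creld2 stood at 11.26 there and at 9.74 to 10.39 in the other 9 spleens. Sel1l stood at 11.69 against 10.10 to 10.84, and Xbp1 at 13.38 against 12.30 to 13.11. Neither gene overlapped with the other 9 samples, nor did Edem1, Derl3 and Pdia4, which were 1.68, 1.40 and 1.18 above the median of the others. Edem1 was above background in 4 of the 10 spleens, so its difference was taken against levels mostly not above background. Hspa5 (9.04), Syvn1, Herpud1 and Ddit3 were not the highest in this spleen. Among 10 plasma and B cell markers, the plasma cell genes Mzb1 (13.48 against 11.90 to 12.89), Irf4 (9.97 against 8.79 to 9.71) and Sdc1 (6.47 against 4.73 to 5.69, above background in 2 of the 10 spleens) were highest in this sample. The B cell genes Cd79a (10.85 against 11.34 to 12.13), Cd79b (12.27 against 12.58 to 13.29) and Ms4a1 (6.83 against 7.58 to 9.02) were lowest in it. Jchain (8.27 against 7.03 to 9.77), Tnfrsf17, Pou2af1 and Prdm1 were within the range of the others. The part of cell makeup in these values was not tested, and the sample was singled out after its values were seen. Without it, 0 genes were called in any comparison of treatment or time in spleen, as with it.

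**Figure D2:**
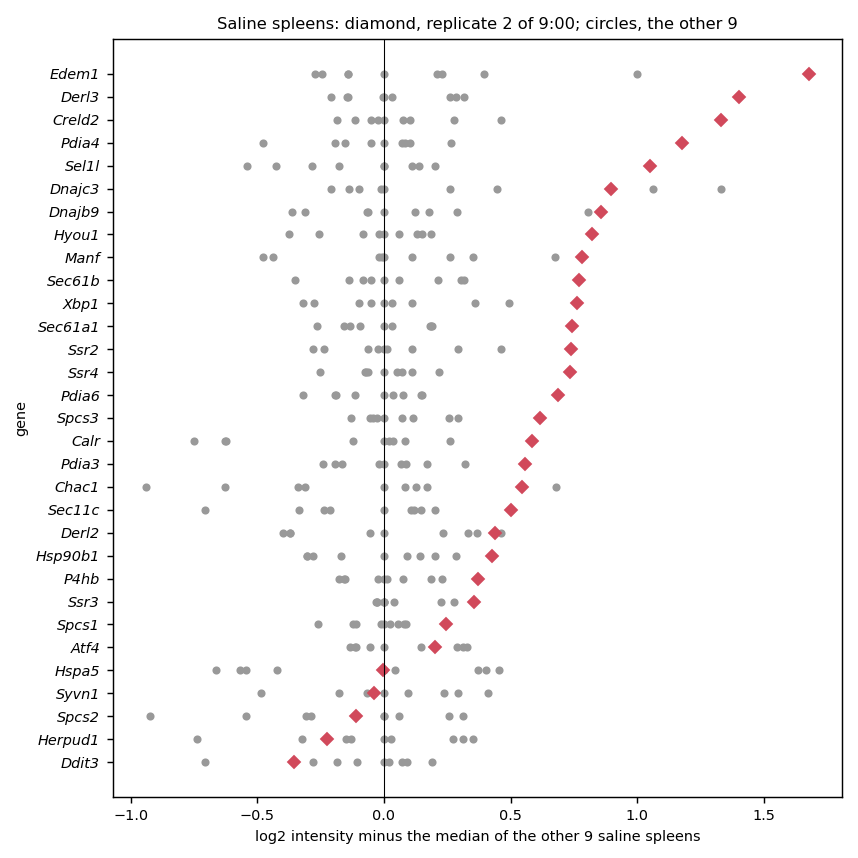
Deviation of each gene (log2) in each of the 10 saline spleens from the median of the other 9, one point per sample, with replicate 2 of the 9:00 group as a diamond. The diamonds lie above the other points for most genes, furthest for Edem1, Derl3, Creld2, Pdia4 and Sel1l.

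In the thyroid samples at 9:00, injection of 131I was accompanied by a fall of 17 of the 30 tested genes and a rise of 0, against 12.3% of 12144 probes called (8.05% fell). The count was 7 where arrays were scaled by their medians only. The falls took in every tested translocon gene (5 of 5), 3 of 4 disulfide isomerases, 2 of 4 signal peptidase subunits, 3 of 6 chaperones, 3 of 6 degradation genes and Xbp1 among the 3 stress factors. The median change over the 30 genes was −0.92, against 0.08 over all probes. Of the stress genes, Xbp1 was called, while Atf4 (0.15), Ddit3 (0.48) and Chac1 (0.28) were not, nor was the chaperone Hspa5 (−0.24, adjusted p = 0.693). A missing call does not show an unchanged level.

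P4hb stood at 12.64, 12.61, 13.37 and 12.77 in the 4 saline samples and at 9.44, 10.07, 10.12 and 9.92 in the 4 131I samples. The groups lay far apart, and P4hb fell by 2.96 on the log2 scale (SE 0.67, adjusted p = 0.00458), the largest change of the genes. Sec61a1, the pore-forming subunit of the channel, stood at 8.08, 7.99, 9.00 and 8.25 with saline and at 6.31, 6.55, 6.34 and 6.04 with 131I. It fell by 2.02 (SE 0.43, adjusted p = 0.00348), again with no overlap. Spcs3 stood at 8.42, 8.26, 9.37 and 8.77 with saline and at 6.49, 7.08, 6.68 and 6.97 with 131I. It fell by 1.90 (SE 0.40, adjusted p = 0.00348) and the groups did not overlap. Creld2 stood at 7.93, 7.90, 8.76 and 8.003 with saline and at 6.21, 6.50, 6.72 and 6.43 with 131I, a separation of 1.68 (SE 0.33, adjusted p = 0.00294) that its second probe put at 1.64. Derl3 stood at 6.81, 6.57, 7.69 and 7.001 with saline. With 131I it was not above background in any sample (4.28, 4.26, 4.22 and 4.54), so that it was at least 4.03-fold lower (adjusted p = 0.00711).

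Xbp1, Pdia3, Dnajc3, Sec61b, Sel1l, Ssr2, Ssr4, Hsp90b1, Syvn1, Pdia4, Ssr3 and Spcs1 also fell, with changes from −1.63 for Xbp1 to −0.75 for Spcs1. For Sel1l the other 2 probes gave −0.73 and −1.23 and were not called. Sec11c, at −1.97, missed the threshold by its adjusted p of 0.0126. Herpud1 (−0.78), Calr (−0.51) and Hyou1 (−0.49) were lower without passing, and Pdia6 (−0.02), Derl2 (0.00) and Dnajb9 (0.14) were near 0. Members with an ERSE fell in 5 of 8 cases (median −0.95) and those with a window and no ERSE in 9 of 17 (median −0.85), a difference that was not tested. Hspa5 and Pdia6, whose windows carry an ERSE, were not called.

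The fall of these genes went with that of markers of another tissue. Over 17 salivary gland markers, the mean level was 10.20 to 11.30 in the 4 saline samples, with 14 to 15 markers above background, and 4.85 to 5.05 in the 4 131I samples, with 1 to 3 above background. Of 15 salivary markers tested, 12 fell, by a median of 6.51. Skeletal muscle markers stood at 4.84 to 5.33 with saline and at 5.50 to 13.33 with 131I, and 5 of 14 rose. Their part in the falls of the folding genes was not tested. In whole tissue pieces, fewer cells of a type and less RNA of a gene per cell cannot be told apart. Leaving out replicate 2 of the 131I group, in which lung epithelium markers were high, left 13 genes and 817 of 12144 probes called. This was a smaller share of all probes than the 12.3% called with that sample. The lower number of genes therefore cannot be told apart from fewer calls over the whole array.

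**Figure D3:**
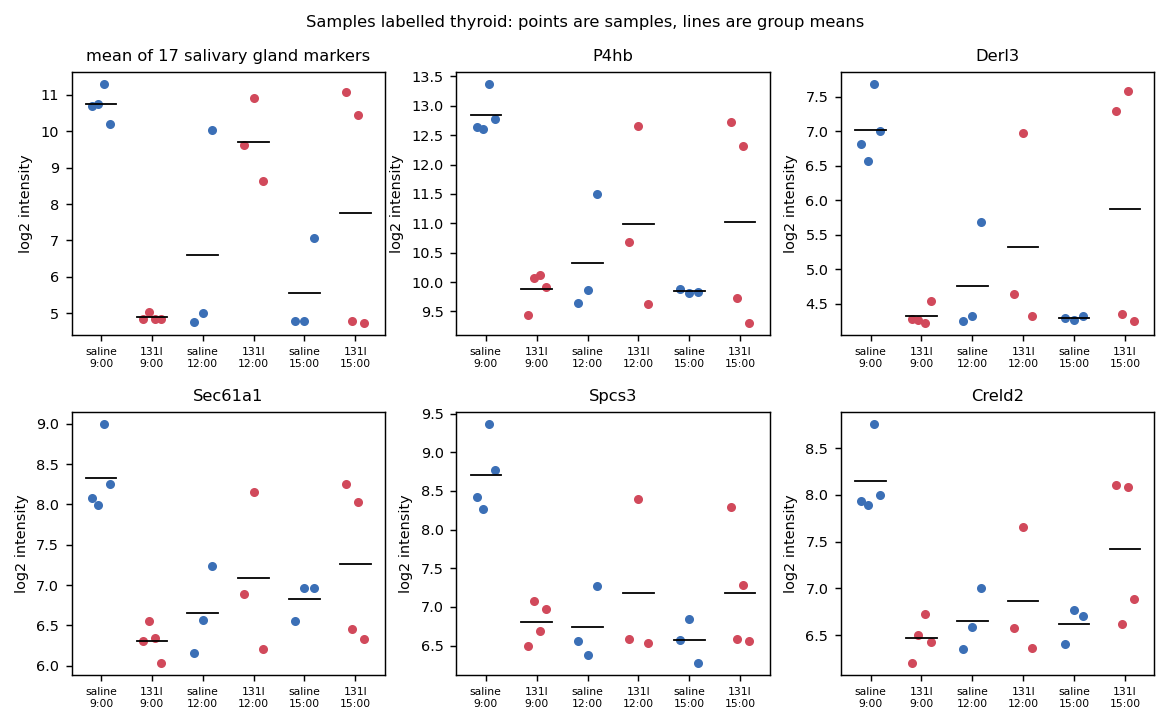
Mean of 17 salivary gland markers and levels of P4hb, Derl3, Sec61a1, Spcs3 and Creld2 (log2 intensity) in every thyroid sample by injection time, saline in blue and 131I in red, lines marking group means. The 4 saline samples at 9:00 are high in all 6 panels and the 4 131I samples at 9:00 are low, while both later 131I groups and the 12:00 saline group hold high and low samples, and the 15:00 saline samples are low for the 5 genes.

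Other genes of the pathway moved the same way at 9:00, with 30 of 94 lower and 2 higher (median change −0.54). Kdelr3, a receptor that returns chaperones from the Golgi, fell by 2.75 (SE 0.44, adjusted p = 0.00189), and Fkbp2, a prolyl isomerase, by 0.97. By list, 6 of 13 other folding enzymes fell, 5 of 14 N-glycosylation genes, 5 of 19 ER-to-Golgi genes (1 rose), 4 of 12 targeting and translocation genes, 4 of 12 other degradation genes, 3 of 10 sensors and proteases, and 3 of 14 ATF4 targets (1 rose). One saline sample had weight here: without replicate 3 of the saline group, which had the highest levels of the 5 genes shown by sample, 0 of the 30 genes were called. Over all leave-one-out fits the count ran from 0 to 14.

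At 12:00 and 15:00, 0 of the 30 genes were called in thyroid between 131I and saline (0% of all probes called, limma, with 1 and 6 genes at an unadjusted p under 0.05). Of all 12144 probes, 394 at 12:00 and 1516 at 15:00 were under that unadjusted p. The mean was higher with 131I for 26 genes at 12:00 and for 25 at 15:00, with median changes of 0.22 and 0.43. Except for saline at 15:00, the samples within these groups differed widely. P4hb stood at 10.69, 12.65 and 9.62 in the 12:00 131I samples, whose salivary marker means were 9.61, 10.90 and 8.64, and at 9.64, 9.86 and 11.49 with saline, with marker means of 4.75, 5.02 and 10.05. At 15:00 it stood at 12.73, 9.73, 12.31 and 9.31 with 131I, with marker means of 11.07, 4.79, 10.44 and 4.74, and at 9.87, 9.82 and 9.84 with saline, with marker means of 4.78, 4.79 and 7.08. In both of these 131I groups and in the saline group of 12:00, the order of the samples by P4hb was their order by marker mean. In the saline group of 15:00 and in both groups of 9:00 it was not, and the part of the markers was not tested. Derl3 was above background in 1 of 3 131I samples at 12:00 (6.98) and in 2 of 4 at 15:00 (7.29 and 7.58), and in 1 of 3 saline samples at 12:00 (5.69) and 0 of 3 at 15:00. An F test in limma for a treatment effect that depends on the injection time called 0 genes in thyroid. Of the 30 genes, 22 were below an unadjusted p of 0.05 in this F test, as were 4202 of all 12144 probes. The smallest adjusted p among the genes was 0.0103.

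Among saline thyroids, the genes were lower at 15:00 than at 9:00. In this comparison, 12 of 30 fell and 0 rose (3 called with median scaling, 7 with no filter on dim probes), against 11.5% of all probes called (6.53% fell), and the median change was −0.98 (0.11 over all probes). It shares the 4 saline samples of 9:00 with the comparison of 131I and saline at 9:00, so that the results of the 2 are not independent. P4hb fell by 3.00 (SE 0.72, adjusted p = 0.00679), from the 9:00 levels above to 9.87, 9.82 and 9.84. Sec11c stood at 11.03, 10.33, 12.06 and 11.45 at 9:00 and at 8.99, 8.79 and 8.91 at 15:00. It fell by 2.32 (SE 0.59, adjusted p = 0.00859), with no overlap. Spcs3 fell by 2.14 (adjusted p = 0.00413) to 6.58, 6.84 and 6.28, and Creld2 by 1.53 (adjusted p = 0.00592) to 6.401, 6.76 and 6.70. Sel1l stood at 9.12, 9.17, 9.86 and 9.31 at 9:00 and at 8.25, 8.06 and 7.92 at 15:00, a fall of 1.29 (adjusted p = 0.00413) without overlap. Dnajc3, Hsp90b1, Pdia3, Sec61b, Ssr3, Ssr4 and Spcs1 fell too. Derl3 was above background in 0 of 3 samples at 15:00 and did not pass (adjusted p = 0.0103). Salivary markers fell in the same comparison, 6 of 15 (median −6.84), and their part was not tested. The count was 0 to 9 with 1 sample left out at a time.

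At 12:00 against 9:00, 0 of 30 genes were called in saline thyroids (0.412% of all probes, limma). An unadjusted p under 0.05 was found for 24 of these genes and for 4502 of all 12144 probes. The genes nearest the threshold were Hsp90b1 and Pdia3, both with an adjusted p of 0.0119. Hsp90b1 stood at 11.39, 11.50, 11.93 and 11.63 at 9:00 and at 10.75, 10.69 and 10.78 at 12:00, a difference of −0.87 without overlap. Pdia3 stood at 10.82, 11.00, 11.61 and 11.22 at 9:00 and at 9.43, 9.82 and 10.05 at 12:00, likewise without overlap (−1.39). Between 15:00 and 12:00, 0 genes were called (0% of all probes), and 0 had an unadjusted p under 0.05, against 790 of 12144 probes. Of 94 other genes of the pathway, 15 fell and 2 rose from 9:00 to 15:00. Kdelr3 fell by 3.01, Kdelr2, a second such receptor, fell by 1.36, and from 9:00 to 12:00 Kdelr3 alone fell by 2.74.

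**Figure D4:**
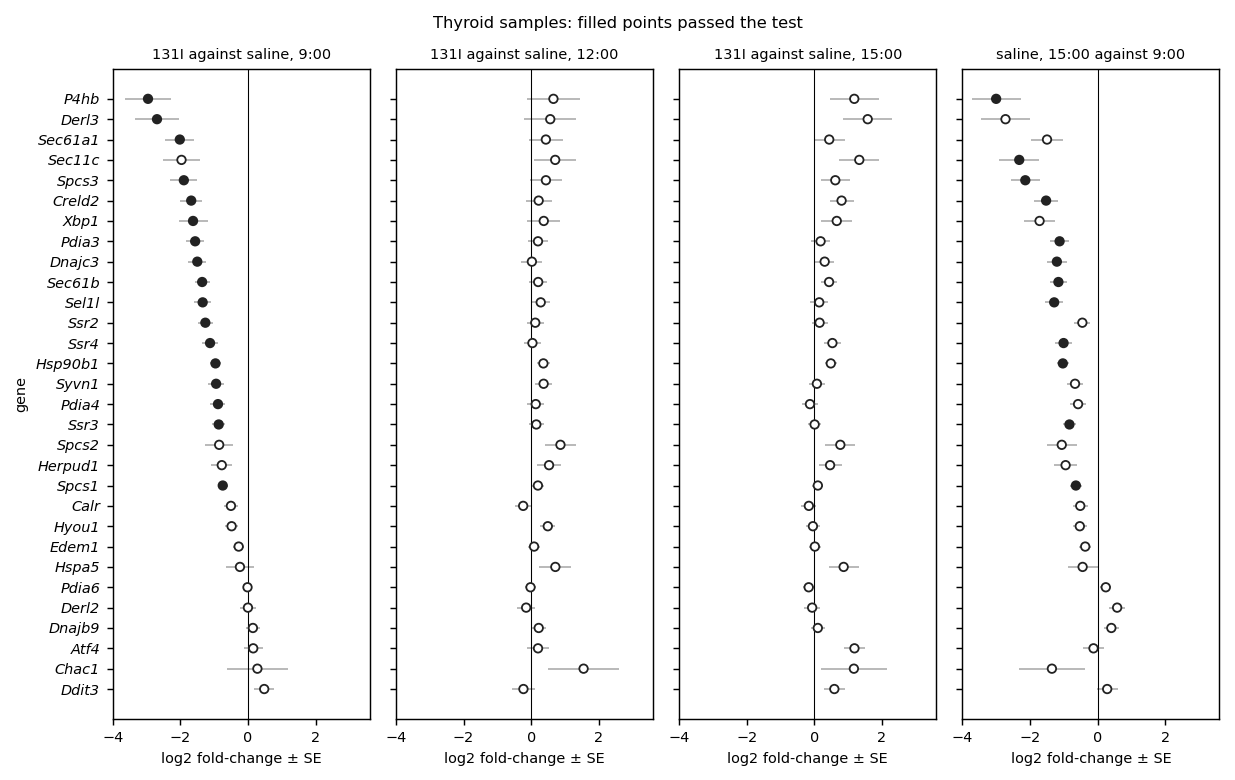
Change of each of the 30 tested genes in the thyroid samples (log2, bars are 1 SE) in 4 comparisons, filled points for those past the threshold. In the comparison of 131I with saline at 9:00 and of saline at 15:00 with 9:00, which share the same 4 samples, 17 and 12 genes are filled and all of them are negative.

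In kidney medulla at 12:00, 2 genes of the stress response passed the threshold in opposite directions with 131I. Hspa5, a common readout of the unfolded protein response, rose, and Ddit3, its pro-apoptotic factor, fell. These were 2 of 28 tested genes (7.14%), against 4.25% of 13247 probes called, so that the count itself does not set these genes apart. Hspa5 stood at 7.60, 8.79 and 7.82 in the 3 saline samples and at 9.48, 9.12, 9.21 and 8.82 in the 4 131I samples. The groups did not overlap but came close, and the rise was 1.09 (SE 0.23, adjusted p = 0.00402), a 2.13-fold change. Ddit3 stood at 7.27, 7.16 and 7.49 with saline and at 6.32, 5.96, 6.27 and 6.33 with 131I. It fell by 1.09 (SE 0.22, adjusted p = 0.00383) with a clear gap between groups, and its second probe, at −0.70, did not pass (adjusted p = 0.0571). Over all 28 genes the median change was −0.07.

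At the other times the saline medullas had Hspa5 at 8.39 to 8.86 (9:00) and 8.51 to 8.70 (15:00), so that the 12:00 saline samples included the 2 lowest values, 7.60 and 7.82. Between saline medullas of 12:00 and 9:00, Hspa5 (−0.58, adjusted p = 0.471) did not pass, nor did Herpud1 (0.36, adjusted p = 0.449, 0.0151% of all probes called). Neither gene was called with 131I at 9:00 or 15:00, where 0 of 13247 probes were, and the test of a difference between times gave adjusted p of 0.196 for Hspa5 and 0.129 for Ddit3. Among other genes of the pathway, Erp44, which retains client proteins by thiol exchange, rose by 1.33 (SE 0.23, adjusted p = 0.00128), and Slc3a2, an amino acid transporter subunit and ATF4 target, by 1.501 (SE 0.27, adjusted p = 0.00167). In all, 4 of 93 such genes rose and 2 fell. Papilla and urothelium markers (11 genes) had a mean of 6.81 to 7.82 in the 131I samples and 9.28 to 9.76 in the saline samples, with 6 of 11 lower and 1 higher, and 11 proximal tubule markers stood at 11.99 to 12.16 against 11.24 to 11.64. The part of these differences in the changes of Hspa5 and Ddit3 was not tested. Without saline replicate 1 or replicate 3, neither gene was called. Leaving out 131I replicate 1, 2 or 3 lost 1 of the 2 calls each time. Each gene lost its call in 5 of 14 alternative runs. Hspa5 was not called in a fit of the 2 groups alone, nor Ddit3 without background correction or in the deposited normalized values, where its fold was under 1.5.

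**Figure D5:**
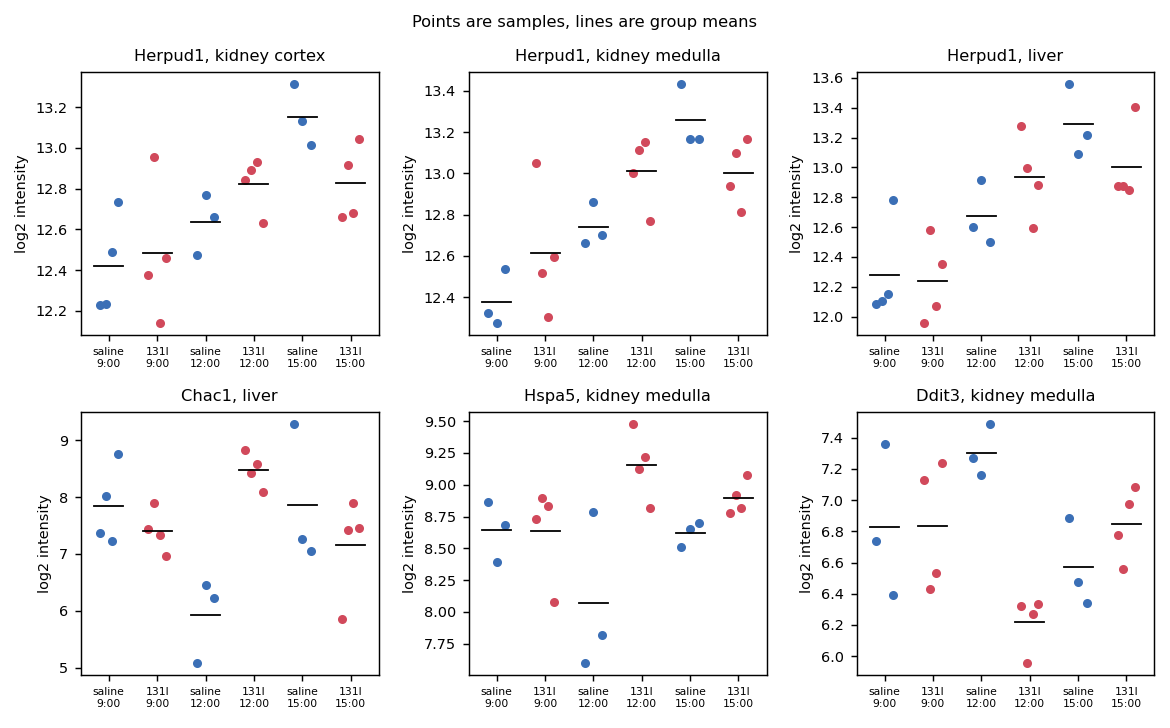
Levels (log2 intensity) of Herpud1 in cortex, medulla and liver, Chac1 in liver, and Hspa5 and Ddit3 in medulla, in every sample by injection time, saline in blue and 131I in red, lines marking group means. Saline Herpud1 levels are highest at 15:00 in the 3 tissues, and Chac1 in liver differs between treatments at 12:00, where the saline samples are the lowest.

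In liver, Chac1 was the 1 gene of 28 called between 131I and saline at 12:00 (1.45% of 11564 probes called, 0.545% higher). It stood at 5.09 (not above background), 6.46 and 6.23 in the saline samples and at 8.83, 8.43, 8.59 and 8.09 in the 131I samples. The groups did not overlap, and the rise was 2.56 (SE 0.49, adjusted p = 0.00282). The saline values at 12:00 were also below those of the saline livers at 9:00 (7.38, 8.01, 7.22 and 8.76) and at 15:00 (9.29, 7.27 and 7.05). These differences, −1.92 from 9:00 to 12:00 (adjusted p = 0.0224) and 1.94 from 12:00 to 15:00 (adjusted p = 0.0324, 1.75% of all probes called), did not pass, and all of these comparisons share the 3 saline samples of 12:00. With 131I, Chac1 stood at 7.44, 7.90, 7.33 and 6.96 at 9:00 and at 5.86, 7.41, 7.89 and 7.46 at 15:00, overlapping with saline at both times. The test of a difference between times gave an adjusted p of 0.0153 for Chac1. Without saline replicate 1, the lowest sample, 0 genes were called at 12:00.

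Pdia5, a disulfide isomerase outside the 39 genes, had the same order, 1.12 higher with 131I at 12:00 (SE 0.18, adjusted p = 4.37e-04), and among saline livers 0.99 lower at 12:00 than at 9:00 and 1.42 higher at 15:00 than at 12:00, all past the threshold. The 12 hepatocyte markers had a mean of 12.00 to 12.68 in the 12:00 saline livers and of 12.72 to 12.92 in the 131I livers, and their part in these values was not tested.

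The saline livers of 9:00 were high for most of the genes. The mean level over the 28 tested genes was 9.84 to 10.20 in these 4 livers and 9.46 to 9.82 in the other 18, with no overlap, a pattern noticed after the values were seen and given here without a test. At 9:00, all 28 genes had a lower mean with 131I than with saline (median −0.25, against 0.00 over all probes), and 0 passed (limma, 6 at an unadjusted p under 0.05, smallest adjusted p 0.634). Of all 11564 probes, 664 had an unadjusted p under 0.05 in this comparison. At 12:00 and 15:00 the saline means were lower than at 9:00 for 26 and 25 of the 28 genes, with medians of −0.27 and −0.32. Larger differences were those of Chac1, given above, and of Calr (−0.96, adjusted p = 0.0453) and Creld2 (−0.93, adjusted p = 0.0447) at 15:00 against 9:00, which did not pass. The 3 comparisons share the 4 saline livers of 9:00. Some came near the threshold. Pdia3 was 0.57 lower at 15:00 than at 9:00 with an adjusted p of 0.00470, past the limit on p but not on the fold. Syvn1 stood at 11.78, 11.66, 11.52 and 12.24 at 9:00 and 10.99, 11.03 and 11.47 at 12:00. Its groups did not overlap, by a narrow gap, and its change of −0.64 had an adjusted p of 0.0138 (2.03% of all probes called).

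Herpud1, which brings the degradation machinery to the membrane and whose window carries both an ERSE-II and a CARE, was highest in saline mice injected at 15:00 in liver and both parts of the kidney. In medulla it was the 1 gene called between 15:00 and 9:00 (0.159% of all probes called). It stood at 12.32, 12.28 and 12.53 at 9:00, at 12.66, 12.86 and 12.70 at 12:00 and at 13.43, 13.17 and 13.17 at 15:00. The 3 groups did not overlap, and the rise from 9:00 to 15:00 was 0.88 (SE 0.15, adjusted p = 0.00488), with 0.92 for the second probe. In liver it was again the 1 gene called, which is 3.57% of 28 genes against 2.88% of all probes (1.61% higher). Levels of Herpud1 there were 12.08, 12.11, 12.15 and 12.78 at 9:00, 12.60, 12.92 and 12.50 at 12:00 and 13.56, 13.09 and 13.22 at 15:00. The 15:00 livers lay above all others, with a rise of 1.01 (SE 0.19, adjusted p = 0.00204) and 1.10 for the second probe, whose rise from 12:00 to 15:00 (0.84, adjusted p = 0.00991) passed as well, while 9:00 and 12:00 overlapped through replicate 4 of 9:00.

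In kidney cortex Herpud1 stood at 12.23, 12.24, 12.49 and 12.73 at 9:00, at 12.47, 12.77 and 12.66 at 12:00 and at 13.31, 13.13 and 13.01 at 15:00. The 15:00 samples were again above all earlier ones, but the change of 0.73 did not pass (adjusted p = 0.0448, 0.047% of all probes called). In spleen (0.39, adjusted p = 0.506), lungs (0.32, adjusted p = 0.426) and thyroid (−0.95, adjusted p = 0.0430) it did not pass either. With 131I, Herpud1 at 15:00 stood at 12.94, 13.10, 12.81 and 13.17 in medulla and at 12.88, 12.87, 12.85 and 13.41 in liver, overlapping with saline in both, and the 9:00 levels were 13.05, 12.52, 12.31 and 12.59 in medulla and 11.96, 12.58, 12.07 and 12.35 in liver. A call between 131I and saline was not made for Herpud1 at any time in these tissues. Since the tissues came from the same mice, their likeness is not independent evidence. In medulla the call was lost with median scaling, and in both medulla and liver it was lost in a fit of the 2 groups alone. With single samples left out, the medulla call held only when saline replicate 3 of 9:00 was left out, and the liver call was lost without replicate 1 of the saline 15:00 group.

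In the remaining comparisons no gene passed the threshold. In cortex, Calr had the smallest p in 3 comparisons. It stood at 8.36, 8.58, 8.09 and 8.18 in saline samples of 9:00, at 7.35, 7.89 and 7.90 at 12:00 and at 8.19, 8.52 and 8.48 at 15:00. The 12:00 samples were the lowest, by 0.59 against 9:00 (adjusted p = 0.0956, 0.0783% of all probes called) and by 0.69 against 15:00 (adjusted p = 0.0456, 0.196%), and the 12:00 131I samples (7.97, 7.95, 8.10 and 8.37) lay just above them (adjusted p = 0.416, 0.141%). Pdia4 in cortex stood at 8.16, 8.06, 7.58 and 7.80 at 9:00 and at 7.08, 7.44 and 7.39 at 12:00, lower in each of the latter, without passing (−0.59, adjusted p = 0.128). Pdia6 in cortex at 12:00 was 0.29 higher with 131I (adjusted p = 0.429), with overlap. Dnajc3, at 7.71, 7.57 and 7.59 at 15:00, was below all saline samples of 9:00 (7.92 to 8.14) and 12:00 (7.99 to 8.11), without passing (adjusted p = 0.121 and 0.0636). In liver at 15:00, Dnajb9 was 0.63 higher with 131I (10.31, 10.81, 11.30 and 11.31 against 10.22, 9.94 and 10.73 with saline), and Ssr4 0.24 higher (adjusted p = 0.287 and 0.320, 0.0259% of all probes called). The groups of Dnajb9 overlapped and those of Ssr4 did not.

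In lungs and spleen, the nearest genes were further from the threshold. Hyou1 in saline lungs stood at 6.84, 6.29, 6.24 and 5.67 at 9:00 and at 5.397, 5.67 and 5.23 at 15:00, with the first and last of these not above background (−0.83, adjusted p = 0.242, 0.0854% of all probes called). These groups touched at 5.67, at 9:00 the value of replicate 4, the saline lung with high proximal tubule markers. Pdia6 in lungs stood at 9.21, 9.05, 9.23 and 8.79 at 9:00 and at 8.71, 8.85 and 8.32 at 12:00, with overlap (−0.45, adjusted p = 0.520, 0.00712% of all probes called). The overlap came through the same replicate 4 (8.79). Syvn1 in lungs was 0.42 higher at 12:00 and 0.38 higher at 15:00 than at 9:00, likewise with overlap (adjusted p = 0.531 and 0.401). In spleen, Herpud1 and Manf at 15:00 against 9:00 had adjusted p of 0.506 and 0.552 (0.00758%), and Manf was above background in 1 of these 7 samples. In spleen at 15:00, 28 of 31 genes had a higher mean with 131I (median 0.26), and at 9:00 23 of 31 a lower one (median −0.16), with 0 called at either time (limma, 4 and 0 at an unadjusted p under 0.05). Of all 13184 probes, 360 at 15:00 and 595 at 9:00 were under that unadjusted p. The 9:00 saline group includes the spleen that stood apart. The F test for a treatment effect that depends on the injection time called 0 of the genes in any tissue (limma), with 1 gene at an unadjusted p under 0.05 in cortex, 5 in medulla, 7 in liver, 0 in lungs, 2 in spleen and 22 in thyroid. Of all probes, 0.00783% were called by it in cortex, 0.545% in liver and 0% in the other tissues. An unadjusted p under 0.05 was found for 759 of 12776 probes in cortex, 1963 of 13247 in medulla and 1675 of 11564 in liver. In lungs it was found for 466 of 14051, in spleen for 618 of 13184 and in thyroid for 4202 of 12144.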

How the data were processed

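Total RNA of 130 tissue samples was hybridised to 136 Illumina MouseRef-8 arrays. The deposited non-normalized table holds mean bead intensities per probe, which the authors exported after scanning and which are neither background-corrected nor normalized. The same deposited table gives a detection p-value per probe and array, computed from the negative control beads. A second deposited table holds intensities that the authors quantile normalized over all arrays. It was used only as an alternative. The aligner of probes to genes is not given in the sources used here, and gene names came from the platform annotation of the probes.

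The non-normalized intensities were corrected by normexp with the detection p-values (limma 3.58.1 in R 4.3.3, offset 16), quantile normalized within each tissue and log2 transformed, and repeat arrays were averaged. For the comparison of tissues all arrays were normalized together. Probes with a detection p-value under 0.01 on at least 3 arrays of the tissue were tested, with lmFit on the group means, eBayes with a trend and Benjamini-Hochberg adjustment over all tested probes. A call needed a fold-change of 1.5 and an adjusted p under 0.01, and in the F test an adjusted p under 0.01 alone. "Above background" means a detection p-value under 0.01. A fold against a group with no sample above background is a lower bound, taken against the lowest signal above background on each array. The fits were tested on data simulated for 3 tissues with known changes at 9:00. Of 100 changes of 1 on the log2 scale, 37% were called in thyroid, 68% in liver and 78% in medulla. Of 100 changes of 2, 89%, 99% and 98% were. Changes of 1 were thus often missed, most of all in thyroid.

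The genes and lists were chosen with earlier results of these data known. Values by sample were given for the 5 called genes with the largest change in each comparison, for the 2 with the smallest p where no gene but other probes were called, and for the 2 genes per role with the widest range of tissue means. Other genes of the pathway were named by the 2 smallest p among those called. The alternatives tried were median scaling, all probes of a gene, no filter on dim probes, uncorrected intensities, the deposited normalized values, repeat arrays left out, the replicate number as a block, fits of 2 groups only, single injection times, and each sample left out in turn. Leaving out the lung sample with kidney markers, or all thyroid samples, from the comparison of tissues was added after seeing the data. The number of arrays limits the precision. The labels do not say whether samples of a group were prepared together, so p-values measure only the spread between these samples. The paper reports individual cages for the experimental groups on the day of injection. Where each group had its own cage, cage cannot be told apart from treatment and injection time. Of 6 repeat arrays, 3 correlated best with the first array of their own sample.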

Additional observations from a re-analysis of the deposited data

Results flagged for a closer look

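Samples far from the rest of their group were looked for among the values described above, in 129 groups of 4 to 10 samples, and 15 held one by Dixon's criterion at the 95% level. Chance alone gives about 1 in 20 groups.

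Of the 15, 5 were the same spleen, replicate 2 of the saline 9:00 group, in which Creld2 was 11.26 (others 9.74 to 10.39), Sel1l 11.69 (others 10.10 to 10.84), Pdia4 9.75 (others 8.10 to 8.84), Pdia6 8.58 (others 7.57 to 8.04) and Ssr4 13.29 (others 12.31 to 12.78), on the scale of all arrays. Its first and its repeat array gave 21 and 23 of 31 genes as the highest of the saline spleens.

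In thyroid, saline replicate 3 of 9:00 was apart in Creld2 (8.76, others 7.90 to 8.003) and, among all saline thyroids on the scale of all arrays, in Ddit3 (6.01, others 6.79 to 7.66). Without this sample 0 genes were called between 131I and saline at 9:00. The 131I replicate 4 of 9:00 was apart in Derl3 (4.54, others 4.22 to 4.28), where none of the 4 samples was above background.

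In liver, Herpud1 in saline replicate 4 of 9:00 was 12.78 (others 12.08 to 12.15), and Ssr4 in 131I replicate 4 of 15:00 was 12.34 (others 12.10 to 12.14). In lungs, Sec11c in saline replicate 3 of 15:00 was 9.25 (others 10.06 to 10.97). In kidney medulla, Chac1 in saline replicate 2 of 15:00 was 5.15 (others 6.52 to 7.74), and Trib3, not above background, was 4.68 in saline replicate 3 of 12:00 (others 4.38 to 4.53). In kidney cortex, Trib3, likewise not above background, was 4.91 in saline replicate 2 of 9:00 (others 4.36 to 4.65), and Xbp1 was 12.31 in saline replicate 1 of 15:00 (others 11.05 to 11.61).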

How the results depend on the processing

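The 39 changes of treatment or time chosen by the naming rule kept their direction in every alternative run, and the calls depended most on single samples. Shares over all probes are not given for the runs below. A lower number of genes there cannot be told apart from fewer calls over the whole array. With median scaling, 7 genes were called in thyroid at 9:00, 3 in saline thyroids at 15:00 against 9:00, 0 in saline medullas at 15:00 against 9:00, and, between tissues, 3 in cortex, 3 in medulla and 4 in lungs. With no background correction and with the deposited normalized values alike, 1 gene was called in medulla with 131I at 12:00, 1 in the test of a time-dependent treatment effect in thyroid, 1 in lungs and 7 in thyroid against the other tissues. With no filter, saline thyroids gave 7 at 15:00 against 9:00. Without repeat arrays, 6 genes were called in thyroid for a time-dependent treatment effect. With all probes of each gene, 2 were called in saline livers at 15:00 against 9:00, 1 at 15:00 against 12:00, and 2 in medulla against the other tissues. Fits of 2 groups only gave 1 in medulla with 131I at 12:00, and 0 in medulla and 0 in liver between saline at 15:00 and 9:00. Among tissues, 9:00 samples only gave 4 in medulla and 5 in lungs, and 12:00 samples only gave 3 in medulla. Leaving out the thyroid samples, chosen after seeing the data, gave 11 in cortex, 4 in medulla and 5 in lungs.

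With each sample left out in turn, the number of genes called ran from 0 to 14 in thyroid at 9:00 (0 without saline replicate 3) and from 0 to 14 for its time-dependent treatment effect. It ran from 0 to 9 in saline thyroids at 15:00 against 9:00, from 0 to 2 in medulla with 131I at 12:00, from 0 to 1 in saline medullas at 15:00 against 9:00, from 0 to 3 in saline livers at 15:00 against 9:00, and from 0 to 1 in liver with 131I at 12:00, in saline livers at 12:00 against 9:00 and for the time-dependent treatment effect in liver. The causes were not tested.

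The replicate numbers were checked for pairing between treated and saline samples of the same tissue and injection time. In 0 of 18 sets of same-numbered samples did all pairs correlate over 0.1 (59 pairs, r from −0.63 to 0.45). The samples of a pair came from different mice, and the check gave no sign of pairing by number between treatments. It could not show whether a number marks the same mouse across tissues, which was not tested. With the replicate number as a block, 0 genes were called in saline medullas at 15:00 against 9:00 (Herpud1, adjusted p = 0.0102 in limma), and Derl3 in thyroid at 9:00 (adjusted p = 0.0116) and Sec11c in saline thyroids at 15:00 against 9:00 (adjusted p = 0.0130) were lost. The slide as a block was not run, since no slides are named.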
